A study of Homo sapiens with 6 samples.

Results

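The genes described here are 9 genes of the bone morphogenetic protein (BMP) and TGF-beta pathways: BMP4, BMP2, TGFB2, SMAD6, SMAD7, ID1, ID2, ID3 and TGFBI. They were chosen by name, with earlier results of these data known. The row for the sense strand of each was read in every library, giving 9 of 22984 sense-strand genes. Nascent RNA was measured by Bru-seq, in which bromouridine marks the RNA made during the last 30 min before harvest so that transcription is read rather than the pool of mature RNA. All cells were HCT116, an established human colorectal carcinoma line, and each of the 6 libraries came from 1 culture. Of these, 2 cultures received the vehicle DMSO (0.01%, 4 h), 1 received siRNA against GSTO1 (10 nM, 24 h, called siGSTO1), 1 received the GSTO1 inhibitor C1-27 (1 µM, 4 h), 1 received C1-27 (1 µM, 24 h) and 1 received C1-14, its inactive analogue (10 µM, 4 h). Neither a non-targeting siRNA control nor DMSO at 24 h was analysed here, so duration and treatment cannot be told apart where a 24 h culture is set against DMSO. All 4 treatments were compared with the same DMSO libraries.

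BMP and TGF-beta ligands are secreted proteins that bind paired serine/threonine kinase receptors. The receptors phosphorylate SMAD proteins, which enter the nucleus with SMAD4 and switch target genes on or off. The BMP branch uses SMAD1, SMAD5 and SMAD9 and induces the ID genes, whose products block helix-loop-helix transcription factors and hold cells in an undifferentiated state. The TGF-beta branch uses SMAD2 and SMAD3. SMAD6 and SMAD7 are inhibitory SMADs that are induced by the pathways and dampen them. In the normal colon BMP signalling is associated with differentiation, and HCT116 is known to carry inactivating mutations of the type II TGF-beta receptor TGFBR2.

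The SMAD proteins bind short letters in promoters, and the windows of the 3 genes that fell with siGSTO1 (BMP4, SMAD7 and TGFB2) and of the related inhibitory SMAD6 are shown for that reason. RefSeq windows of 250 bases before a transcription start (GRCh38.p14) were found for 8 of the 9 genes, 12 windows in all, since BMP4 and SMAD7 have 3 starts each. What is printed is from the outermost start of each gene. Both strands were searched for the SMAD palindrome GTCTAGAC, the CAGA box CAGAC and the GC-rich site GGCGCC, which do not overlap one another in these windows. Of 35116 windows in the table, 0.182% held the palindrome, 38% the CAGA box and 16.4% the GC-rich site. Capitals mark the matches. For BMP4 the whole window is given (chr14:53955051-53955300, minus strand), and it overlapped 0 exons of GENCODE v29. Its GTCTG is the CAGA box read on the other strand. The window lies before the outermost BMP4 start in the table, although the annotated gene reaches further upstream. For the others, a stretch of 23 or 27 bases around each match at that start is given, SMAD7 at chr18:48951167-48951193 and chr18:48951078-48951104 (minus strand), TGFB2 at chr1:218345086-218345108 and chr1:218345272-218345298 (plus strand) and SMAD6 at chr15:66702213-66702235 (plus strand).
BMP4: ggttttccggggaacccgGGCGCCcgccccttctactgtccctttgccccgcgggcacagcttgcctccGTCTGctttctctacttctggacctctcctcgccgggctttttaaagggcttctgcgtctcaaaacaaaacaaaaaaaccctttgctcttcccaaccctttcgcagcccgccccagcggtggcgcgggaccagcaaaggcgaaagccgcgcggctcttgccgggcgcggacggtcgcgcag
SMAD7 at -217: ccggacgccccCAGACctctgaggttc
SMAD7 at -128: tcttattttgcCAGACgtctcatgcgg
TGFB2 at -243: ccttcaaCAGACctgtccaaaat
TGFB2 at -53: tttgttgaaggCAGACacgtggttcag
SMAD6 at -12: gccgccaaagtGTCTAGACtggc
Each position is that of the first matching base, counted back from the start. Matches were not limited to the genes that fell. SMAD6 was the only one of the 8 genes with the palindrome, ID3 held a CAGA box at -147 and TGFBI a GC-rich site at -111, and the windows of ID1 and ID2 held no match. The inner starts added a CAGA box at -193 for SMAD7 (start 2) and at -46 for BMP4 (start 3).

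The labelled line was checked first. The epithelial genes EPCAM (2.91 to 3.89 RPKM), KRT8 (3.90 to 10.5 RPKM) and KRT18 (3.89 to 11.9 RPKM) were transcribed in every library. CDH1 was lower, at 0.321 to 0.617 RPKM, and VIL1 had 0 to 3 counts. The leukocyte genes PTPRC, CD3E and CD14 together had 0 to 4 counts, and the fibroblast and endothelial lists summed to 15 to 51 and 49 to 84 counts. Sense-strand counts ran from 18112861 to 36841146 per library, lowest in DMSO library 1. GSTO1, the target of the siRNA, stood at 3.51 and 3.72 RPKM with DMSO, 2.70 RPKM with siGSTO1 and 3.78 to 4.21 RPKM with the compounds. Its nascent RNA was lowest with siGSTO1, 0.748 of the DMSO mean, which did not pass edgeR's quasi-likelihood test (adjusted p = 0.314). RNA interference mainly removes mature RNA, which this assay does not read.

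In DMSO the ID genes and BMP4 were the members transcribed most. On the RPKM scale, which is scaled to the length of the gene and to the mapped reads of the library, ID2 stood at 5.99 ± 2.50, ID1 at 4.54 ± 1.79, BMP4 at 2.42 ± 0.694 and ID3 at 0.940 ± 0.130 (mean ± SD, n = 2). SMAD6 at 0.244 ± 0.163, TGFB2 at 0.221 ± 0.108 and SMAD7 at 0.191 ± 0.158 RPKM lay below the 0.5 RPKM minimum used for fold changes (mean ± SD, n = 2). In this order the values of both DMSO libraries overlapped between ID2 and ID1 and among SMAD6, TGFB2 and SMAD7, and they did not overlap between ID1 and BMP4, between BMP4 and ID3 or between ID3 and SMAD6. BMP2, a ligand close to BMP4 (chr20:6748745-6760910, hg19), had 8 counts over all 6 libraries, of which 5 were in DMSO library 1. TGFBI, a matrix protein induced by TGF-beta (chr5:135364584-135399507), had 14. Both were listed at 0 with siGSTO1, where 3 counts would be 0.00939 RPKM for BMP2 and 0.00327 RPKM for TGFBI, so no change of either was detectable at this depth. That leaves 7 genes that could be tested, of which 4 (BMP4, ID1, ID2 and ID3) also passed the 0.5 RPKM minimum.

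The DMSO libraries differed at these genes. All 7 were higher in DMSO library 2 than in library 1, from 1.22-fold for ID3 to 3.82-fold for SMAD7. Of the 4 genes above 0.5 RPKM, 3 were at least 1.4-fold higher (BMP4 1.51, ID1 1.77 and ID2 1.84), against 2.81% of 7816 genes that passed the same minimum. All 3 genes at or below it were also past 1.4-fold (TGFB2 2.06, SMAD6 2.80 and SMAD7 3.82), against 13.5% of 6565 such genes. ID1, ID2, SMAD6, SMAD7 and TGFB2 were lower in DMSO library 1 than in each of the other 4 libraries without siRNA. The median log2 ratio of library 2 to library 1 over the 7816 genes was -0.08, and library 1 was also the shallowest library. The part of depth in this difference was not tested. Fold changes of the members are therefore given against the DMSO mean and, for comparisons with DMSO, against each DMSO library alone where the direction or size depends on it.

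**Figure D1:**
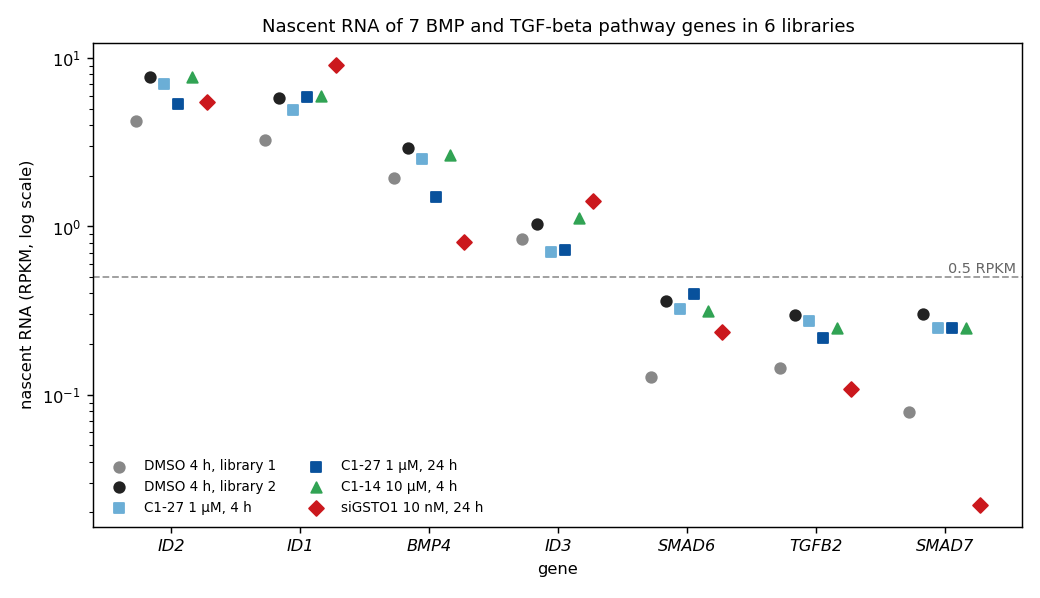
Nascent RNA of 7 of the genes in each of the 6 libraries, in RPKM on a log axis, with 1 point per library and the 0.5 RPKM minimum as a dashed line. siGSTO1 (red diamonds) was the lowest library for BMP4, TGFB2 and SMAD7 and the highest for ID1 and ID3, and DMSO library 1 (grey circles) lay below the other libraries without siRNA for 5 genes.

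The first comparison asks how transcription of these genes stood after GSTO1 knockdown. BMP4, TGFB2 and SMAD7 fell with siGSTO1, to 0.332, 0.488 and 0.117 of the DMSO mean, and each was lower there than in every other library. SMAD6 and the ID genes did not pass the test, although ID1 and ID3 were higher with siGSTO1 than in each other library. edgeR therefore called 3 of the 7 tested genes, all lower, where it called 1.21% of 14428 genes lower and 3.69% higher. Since the members were chosen with earlier results of these data known, these shares are no test of the set. By the 1.4-fold rule on RPKM, 1 of 4 genes was lower (6.46% of 8128 genes were) and 2 were higher (10.4% were). Against DMSO library 2 alone these became 2 lower (BMP4 and ID2) and 1 higher (ID1). With TMM or DESeq2 scaling or a pseudocount of 1 RPKM they became 1 lower and 1 higher. Shares of all genes under these other settings are not given. Each p-value assumes that a single treated library varies as the DMSO libraries do, since those alone give the 1 residual degree of freedom. edgeR shares that spread across genes, so a gene's own difference between the DMSO libraries enters only in part. In RNA from a whole culture, fewer transcribing cells and less RNA per cell cannot be told apart.

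BMP4 encodes a secreted BMP ligand (chr14:54416455-54423554, minus strand). Its nascent RNA stood at 1.93 and 2.91 RPKM in DMSO libraries 1 and 2, 0.805 RPKM with siGSTO1, 2.53 RPKM with C1-27 at 4 h, 1.49 RPKM with C1-27 at 24 h and 2.66 RPKM with C1-14. The siGSTO1 library was the lowest, with C1-27 at 24 h next, and both lay below the range of the DMSO libraries, whereas the other treatments lay inside it. Against DMSO library 1 alone siGSTO1 was 0.416 and against library 2 alone 0.276, and 3.28% of genes were past 1.4-fold lower against each DMSO library. The fitted log2 difference was -1.73 ± 0.395 (SE, edgeR quasi-likelihood test, adjusted p = 0.000861, range over 6 alternatives 0.000219 to 0.0200). DESeq2, with an adjusted p of 0.00664, called BMP4 and no other member.

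TGFB2 encodes the TGF-beta 2 ligand (chr1:218518676-218617961, plus strand), and its nascent RNA is spread thinly over a gene of 99286 bp. Its counts were 335 and 1204 with DMSO, 281 with siGSTO1, 1061 and 990 with C1-27 at 4 h and 24 h, and 856 with C1-14. In RPKM these were 0.144 and 0.297 with DMSO, 0.108 with siGSTO1, 0.276 and 0.217 with C1-27 and 0.249 with C1-14. The siGSTO1 value was close to that of DMSO library 1, at 0.747 of it, and at 0.363 of library 2. The fitted log2 difference from DMSO was -1.18 ± 0.337 (SE, edgeR quasi-likelihood test, adjusted p = 0.0153, range over 6 alternatives 0.00773 to 0.209), and the call was lost when library totals replaced TMM scaling and with DESeq2.

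SMAD7, an inhibitory SMAD that blocks the type I receptors of both branches (chr18:46446223-46477081, minus strand), showed the widest range. It had 57 and 380 counts with DMSO, 18 with siGSTO1, 299 and 353 with C1-27 at 4 h and 24 h, and 267 with C1-14. These correspond to 0.0790 and 0.302 RPKM, 0.0222 RPKM, 0.251 and 0.249 RPKM, and 0.250 RPKM. The siGSTO1 value lay below both DMSO libraries, at 0.281 of library 1 and 0.0736 of library 2, while the compound libraries lay between the DMSO libraries. The ratio of siGSTO1 counts per mapped read to those pooled over DMSO was 0.101 (95% exact interval 0.0591 to 0.161, counting error only). The fitted log2 difference was -3.31 ± 0.685 (SE, edgeR quasi-likelihood test, adjusted p = 0.000151, range over 6 alternatives 4.71e-06 to 0.324), and DESeq2 did not call it.

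SMAD6, the inhibitory SMAD that acts mainly on the BMP branch (chr15:66994674-67074337, plus strand), did not pass the test. It stood at 0.128 and 0.359 RPKM with DMSO, 0.237 with siGSTO1, 0.324 and 0.396 with C1-27 at 4 h and 24 h, and 0.315 with C1-14. The siGSTO1 value lay between the DMSO libraries, at 1.85 times library 1 and 0.660 of library 2, so its direction depends on the control taken.

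ID1, ID2 and ID3 are the classical immediate targets of BMP signalling, and none of them passed the test with siGSTO1. ID1 (chr20:30193086-30194317) stood at 3.28 and 5.81 RPKM with DMSO, 9.15 with siGSTO1, 4.95 and 5.88 with C1-27 at 4 h and 24 h, and 5.99 with C1-14. It was highest with siGSTO1, 2.01 times the DMSO mean, 2.79 times library 1 and 1.58 times library 2. This did not pass the test (edgeR quasi-likelihood, log2 difference 0.84 ± 0.411 SE, adjusted p = 0.291, with the unadjusted p under 0.05, range over 6 alternatives 0.249 to 0.679). ID3 (chr1:23884421-23886285) had 37 and 79 counts with DMSO, 70 with siGSTO1, 51 and 62 with C1-27 and 72 with C1-14, and in RPKM siGSTO1 was 1.52 times the DMSO mean (1.68 and 1.38 times libraries 1 and 2, adjusted p = 0.792 in edgeR). ID2 (chr2:8822113-8824583) stood at 4.22 and 7.76 RPKM with DMSO and 5.46 with siGSTO1, inside the DMSO range.

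**Figure D2:**
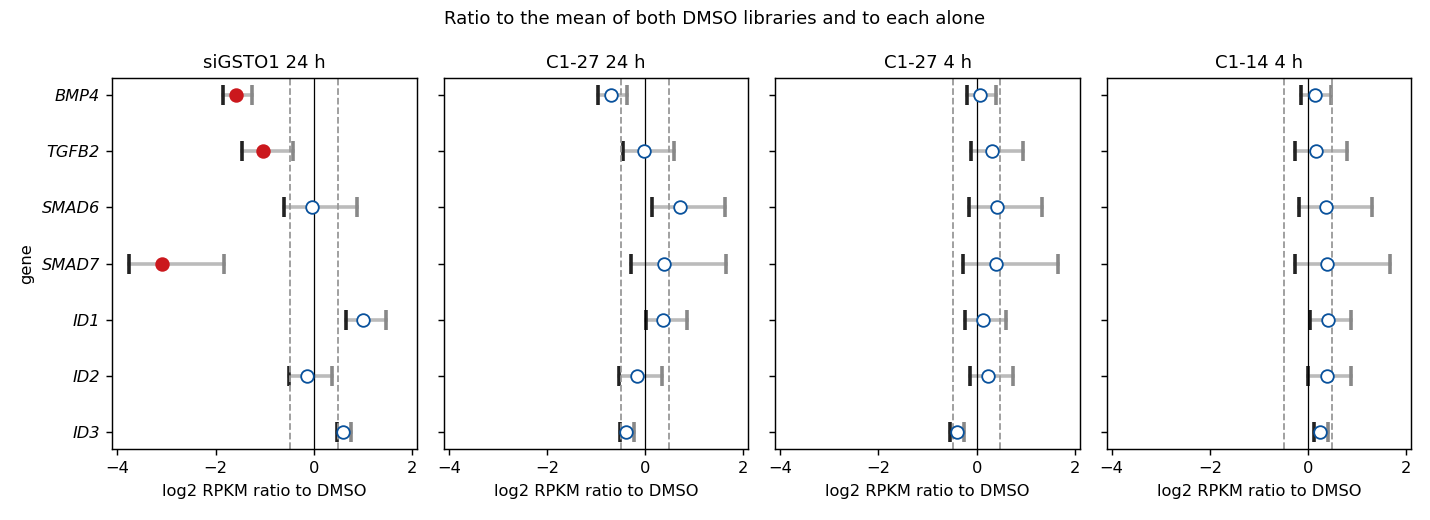
log2 ratio of the RPKM of each treated library to the mean of both DMSO libraries (circles, filled red where edgeR's adjusted p was under 0.05), with bars to the ratio against DMSO library 1 alone (grey tick) and library 2 alone (black tick) and dashed lines at 1.4-fold. With siGSTO1 the bars of BMP4, TGFB2 and SMAD7 lie wholly below 0, and with C1-27 at 4 h the bars of every gene but ID3 cross 0.

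The 24 h C1-27 library asks whether the inhibitor moved the same genes at the same time point. BMP4 stood at 0.616 of the DMSO mean, 0.773 of library 1 and 0.513 of library 2, and it was the 1 of 4 genes past 1.4-fold lower, as were 3.45% of 7910 genes. The mark was passed against library 2 and not against library 1. edgeR called 0 of the 7 genes (0.36% of 14428 genes were called), with BMP4 and SMAD6 under an unadjusted p of 0.05 and 0 calls by DESeq2. For BMP4 the fitted log2 difference was -0.77 ± 0.346 (SE, edgeR quasi-likelihood test, adjusted p = 0.941). SMAD7, at 0.249 RPKM, was 1.31 times the DMSO mean but 3.15 times library 1 and 0.823 of library 2. SMAD6 was highest of all libraries here, 1.63 times the DMSO mean, 3.09 times library 1 and 1.10 times library 2. TGFB2 stood at 0.982 of the DMSO mean (1.50 of library 1 and 0.729 of library 2) and ID2 at 0.896 (1.27 and 0.692), so that their direction too depended on the library taken. ID1 stood at 1.29 of the mean (1.79 and 1.01) and ID3 at 0.767 (0.850 and 0.698).

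siGSTO1 and C1-27 at 24 h were also compared directly, a contrast of 2 single libraries that uses no DMSO value for its fold changes. The spread behind its p-values comes from the DMSO libraries alone and is shared across genes. Those libraries differ 3.82-fold at SMAD7, and its p-value does not carry that difference in full. SMAD7 fell in siGSTO1, to 0.0894 of its level with C1-27 (0.0222 against 0.249 RPKM, log2 difference -3.54 ± 0.713 SE, edgeR quasi-likelihood adjusted p = 0.000288, range over 6 alternatives 7.79e-06 to 1.00). It was the 1 gene of 7 that edgeR called, where 0.243% of 14428 genes were called lower and 1.19% higher, and DESeq2 called 0. TGFB2 stood at 0.497 of C1-27 (adjusted p = 0.160), BMP4 at 0.539 (adjusted p = 0.489) and SMAD6 at 0.599 (adjusted p = 0.418), all under an unadjusted p of 0.05. By the 1.4-fold rule, ID1 (1.56) and ID3 (1.98) were higher, as were 8.68% of 8184 genes, and BMP4 was lower, as were 4.59%. ID2 was at 1.02.

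Within C1-27, the 24 h library was set against the 4 h library. BMP4 was 0.590 of its 4 h level (1.49 against 2.53 RPKM, 95% exact interval of the count ratio 0.525 to 0.664, counting error only). It was the 1 of 4 genes past 1.4-fold lower, as were 1.59% of 7777 genes. The DMSO libraries themselves differed 1.51-fold at BMP4. SMAD7 was at 0.993, SMAD6 at 1.23, TGFB2 at 0.785, ID1 at 1.19, ID2 at 0.759 and ID3 at 1.02. edgeR called 0 of 7 (0.125% of all genes), with BMP4 alone under an unadjusted p of 0.05, and DESeq2 called 0.

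**Figure D3:**
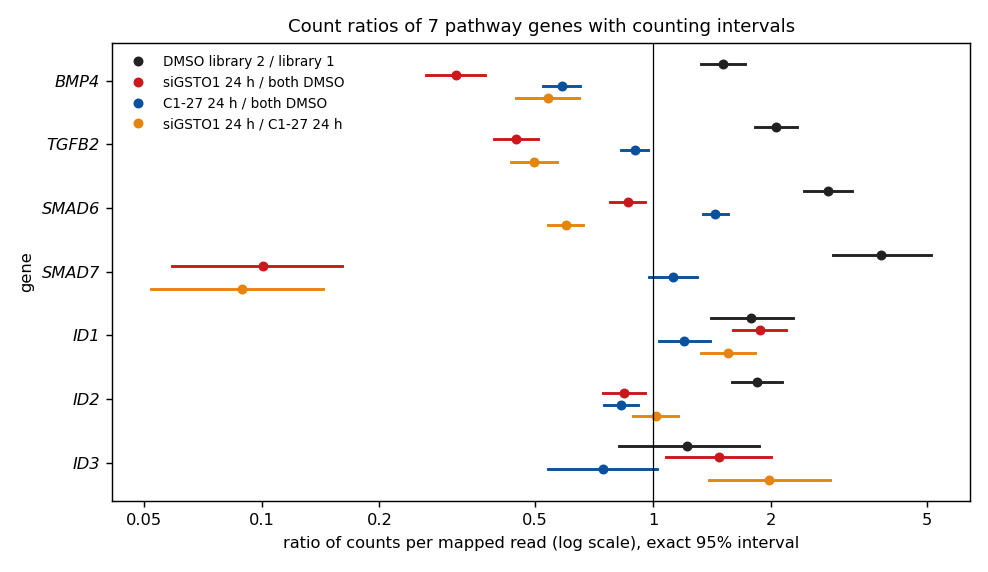
Ratio of counts, each divided by the mapped reads of its library, on a log axis for 7 genes, with exact 95% intervals that cover counting error only. The intervals of SMAD7 with siGSTO1 lie furthest below 1. They run from 0.0591 to 0.161 against both DMSO libraries (red) and from 0.052 to 0.143 against C1-27 at 24 h (orange). Blue points show C1-27 at 24 h over both DMSO libraries. Black points show DMSO library 2 over library 1, whose intervals lie above 1 for every gene but ID3.

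The 4 h treatments hold the inhibitor C1-27 at 1 µM and its inactive analogue C1-14 at 10 µM, and since the doses differ their values are given side by side without a comparison. BMP4 stood at 1.04 of the DMSO mean with C1-27 (1.31 of library 1 and 0.868 of library 2) and at 1.10 with C1-14 (1.37 and 0.912). SMAD7 stood at 1.31 of the mean with C1-27 (3.17 of library 1 and 0.829 of library 2) and at 1.31 with C1-14 (3.16 and 0.827). For both genes the direction turned with the DMSO library taken. It turned for SMAD6 as well, at 1.33 of the mean with C1-27 (2.52 and 0.901) and 1.29 with C1-14 (2.45 and 0.876), and for TGFB2, at 1.25 (1.92 and 0.929) and 1.13 (1.72 and 0.836). ID1 was at 1.09 with C1-27 (1.51 and 0.852) and 1.32 with C1-14 (1.83 and 1.03), and ID2 at 1.18 (1.68 and 0.911) and 1.30 (1.84 and 1.00). ID3 was at 0.755 (0.837 and 0.687) and 1.19 (1.32 and 1.09), on 1 side of each DMSO library. Against the DMSO mean, 0 of the 4 genes above 0.5 RPKM were past 1.4-fold in either library, where 2.61% of 7658 genes were with C1-27 and 4.67% of 7776 with C1-14. edgeR called 0 of 7 in both, with 0 at an unadjusted p under 0.05 and 0 by DESeq2 (0.0208% of 14428 genes were called with C1-27 and 0.139% with C1-14). DMSO library 2, C1-27 at 4 h and C1-14 at 4 h lay close together, with the highest of these values at most 1.21 times the lowest for every tested gene but ID3, at 1.58 times.

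The wider pathway was read from lists of 104 genes by role, the members included, of which 69 could be tested. With siGSTO1, edgeR called 4 higher and 5 lower, or 5.80% and 7.25% of the tested list genes beside 3.69% and 1.21% of all genes, and the median log2 difference of the 69 genes was -0.02 beside 0.02 over all genes. Of the 5 lower calls, 3 were the members BMP4, TGFB2 and SMAD7 described above, so the share of 7.25% is not separate from them. The lists too were chosen with earlier results of these data known. The other genes that fell were SMAD3 and CTGF. SMAD3, a signal carrier of the TGF-beta branch, stood at 3.98 and 4.21 RPKM with DMSO and 2.26 with siGSTO1, and between 4.08 and 4.19 with the compounds. This is 0.552 of the DMSO mean, with siGSTO1 below every other library (edgeR quasi-likelihood adjusted p = 0.0317, DESeq2 0.0140, range over 6 alternatives 0.000581 to 0.158, lost with DESeq2 size factors in edgeR and without the count filter). CTGF, a matricellular target of TGF-beta and also of YAP-TEAD, had 33 and 107 counts with DMSO, 6 with siGSTO1, 36 with C1-27 at 24 h, and 112 and 122 with C1-27 and C1-14 at 4 h. It was 0.113 of the DMSO mean in RPKM (edgeR quasi-likelihood adjusted p = 0.0165, range over 6 alternatives 0.00197 to 0.0877, lost with library totals and DESeq2).

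The 4 list genes that rose with siGSTO1 were GDF15, CDKN1A, BMPER and ACVR1C. GDF15, a distant TGF-beta family ligand that is also a stress and p53 target, went from 0.458 and 0.409 RPKM with DMSO to 3.78, and stood at 1.61 with C1-27 at 24 h and at 0.388 and 0.572 with C1-27 and C1-14 at 4 h. With siGSTO1 it was 8.73 times the DMSO mean (edgeR quasi-likelihood adjusted p = 2.90e-07, range over 6 alternatives 5.86e-09 to 0.000714). CDKN1A, the cell-cycle inhibitor p21 and likewise a p53 target, went from 1.18 and 1.32 RPKM to 6.79, 5.44 times the DMSO mean (edgeR quasi-likelihood adjusted p = 2.36e-13, range over 6 alternatives 3.17e-13 to 1.61e-08). BMPER, a secreted BMP-binding protein, had 31 and 37 counts with DMSO and 128 with siGSTO1 (edgeR quasi-likelihood adjusted p = 0.00282, range over 6 alternatives 0.00142 to 0.376). ACVR1C, a type I receptor for activin and nodal, had 40 and 47 counts with DMSO and 137 with siGSTO1 (edgeR quasi-likelihood adjusted p = 0.0137, range over 6 alternatives 0.00807 to 0.393), and DESeq2 called neither BMPER nor ACVR1C. Both genes were below 0.06 RPKM in every library.

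**Figure D4:**
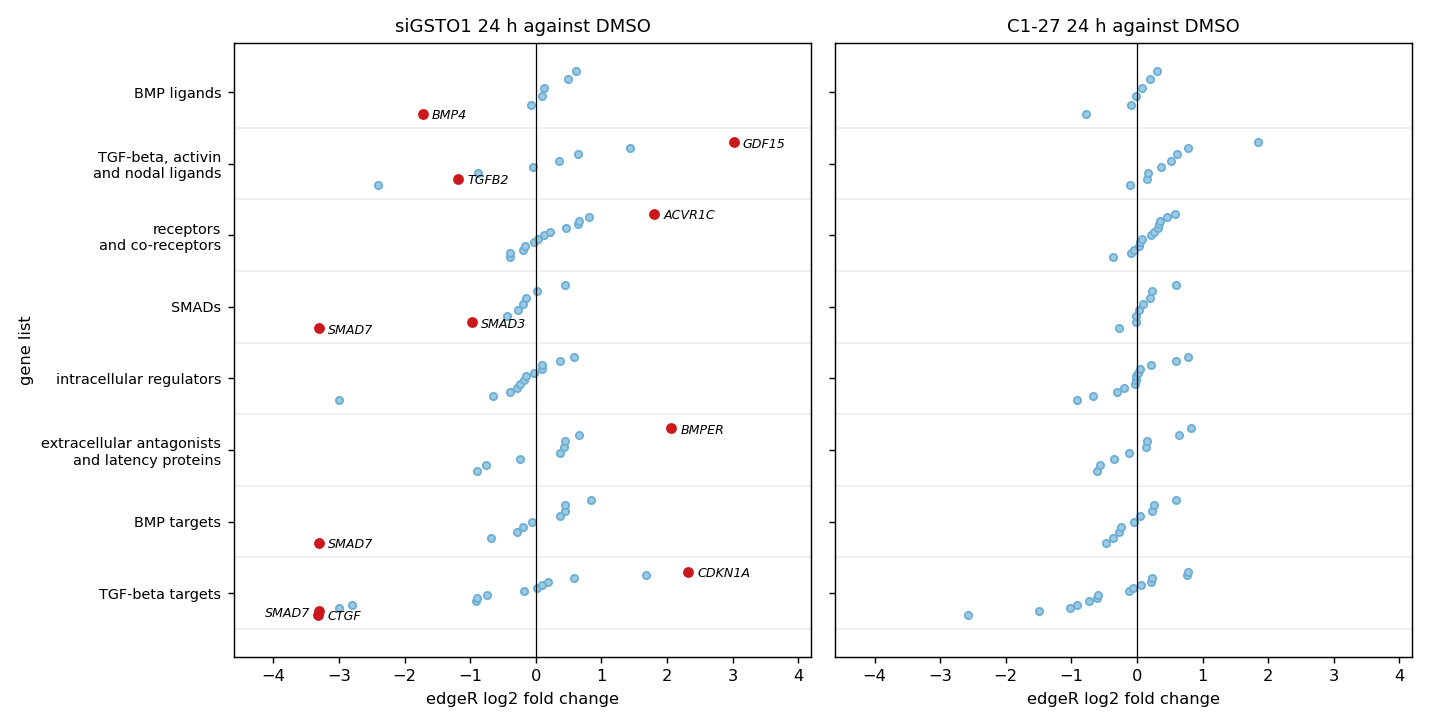
edgeR log2 fold change of the tested genes of 8 pathway lists, with siGSTO1 on the left and C1-27 at 24 h on the right, both against DMSO, each point a gene and red where the adjusted p was under 0.05. Of 69 genes, 4 were called higher and 5 lower with siGSTO1 and 0 with C1-27, and SMAD7 is drawn in each of the 3 lists that hold it.

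By role, siGSTO1 gave 1 lower call and no higher among 6 tested BMP ligands, 1 higher and 1 lower among 8 ligands of the TGF-beta, activin and nodal group, 1 higher among 13 receptors, 2 lower among 8 SMADs, 0 among 12 intracellular regulators, 1 higher among 8 extracellular antagonists and latency proteins, 1 lower among 9 BMP targets and 1 higher and 2 lower among 14 TGF-beta targets. SMAD7 is counted in each of the lists of SMADs, BMP targets and TGF-beta targets, and it is the only call among the BMP targets. The list medians ran from -0.46 for TGF-beta targets to 0.40 for the extracellular antagonists on the log2 scale. With C1-27 at 24 h against DMSO these lists had medians of -0.36 and 0.0083. Of the 14 TGF-beta targets, 8 had negative differences with siGSTO1 and 9 with C1-27 at 24 h. A lower median of that list was thus not particular to siGSTO1. Of the 8 SMADs, 6 had negative differences with siGSTO1. In each of the comparisons of C1-27 at 4 h, C1-27 at 24 h and C1-14 with DMSO, and of C1-27 at 24 h with 4 h, 0 of the 69 genes were called. With C1-27 at 24 h GDF15 was 3.71 times the DMSO mean (edgeR quasi-likelihood adjusted p = 0.0732) and was called under 2 alternatives. CTGF was 0.387 of the DMSO mean in that library (adjusted p = 0.772). Against C1-27 at 24 h, siGSTO1 had CDKN1A and BMPER higher (edgeR quasi-likelihood adjusted p = 0.000878 and 0.00654) and SMAD7 lower. BMPER lost this call with DESeq2 and with the earlier quasi-likelihood method (range over 6 alternatives 0.00289 to 1.00), CDKN1A kept it under all 6 (0.000858 to 0.0434), and DESeq2 called 1 list gene.

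The receptors and signal carriers of both branches were transcribed. BMPR1A, a type I BMP receptor, ranged from 1.42 to 1.88 RPKM over the 6 libraries and TGFBR2 from 3.65 to 4.85 RPKM, and neither passed the test in any comparison. SMAD5, a carrier of the BMP branch, stood at 2.58 and 2.83 RPKM with DMSO and up to 2.87 RPKM with the compounds, and was lowest with siGSTO1 (log2 difference -0.44 ± 0.253 SE, edgeR adjusted p = 0.426). SMURF2, a ubiquitin ligase that acts with SMAD7, ranged from 11.5 to 18.8 RPKM, computed by the authors over 3866 bp of the gene, and STRAP, a partner of SMAD7, from 5.15 to 5.92 RPKM. Among ligands, BMP8B ranged from 0.119 to 0.175 RPKM, a level that is uncertain because its near-identical copy BMP8A can take its reads, and GDF11 from 0.439 to 0.730 RPKM. The latency protein LTBP4 ranged from 0.447 to 0.871 RPKM and the BMP antagonist TWSG1 from 0.645 to 0.872 RPKM. KLF10, an early TGF-beta target, was lowest with siGSTO1 at 2.80 RPKM, against 4.25 and 4.42 RPKM with DMSO (0.647 of the mean, adjusted p = 0.157).

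Among 7902 genes, those whose log2 RPKM followed that of BMP4 most closely over the 6 libraries were GEMIN5 (r = 0.997), RNF138 (r = 0.997), MB21D2 (r = 0.996), DDX47 (r = 0.995) and ATR (r = 0.994). MB21D2 stood at 0.691 and 1.12 RPKM with DMSO, 0.331 with siGSTO1 and 0.573 with C1-27 at 24 h, and GEMIN5 at 2.79 and 3.20, 1.88 and 2.44 RPKM. The genes nearest to ID1 were CLIC4 (r = 0.996), SGK3 (r = 0.985), TRAPPC6B (r = 0.984), UGP2 (r = 0.983) and PPP1R21 (r = 0.982). CLIC4 stood at 0.428 and 0.714 RPKM with DMSO and 1.12 with siGSTO1. These values describe 6 points that share their libraries and depths.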

How the data were processed

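Bru-labelled nascent RNA was measured in 6 libraries grouped by their labels. Per the labels and the study's methods, the authors deposited, by strand and gene, an estimated count over exons and introns (not always whole), a signal (that count per bp) and RPKM. The submitters' processing notes name hg19, CASAVA 1.8.2, Bowtie 0.12.8, TopHat 1.4.1 and bedtools 2.16.2. Sense rows were used. The siRNA time is that of the label, since the methods read differently.

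Fold changes were treated RPKM over the mean DMSO RPKM, without a pseudocount, for genes above 300 bp with a mean of both sides above 0.5 RPKM. Genes at 0 on either side were left out. The threshold was 1.4-fold. Counts were rounded and fitted in edgeR 4.0.16 (R 4.3.3, TMM, quasi-likelihood, 5 groups, at least 10 counts in at least 2 libraries, 14428 genes) with Benjamini-Hochberg adjustment in each of 6 comparisons. The p-values rest on the spread between the DMSO libraries, which edgeR shares across genes. DESeq2 1.42.0 was an alternative. Exact 95% intervals used the Clopper-Pearson method (scipy 1.17.1) with read totals recovered from the deposited signal and RPKM (23388425 to 46017051). The fits were tested on simulated data. Genes named were the 9 members, list genes called in any comparison, the 2 most transcribed of each list, GSTO1 and the 5 nearest to BMP4 and to ID1. Members and lists were chosen with earlier results of these data known.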

Additional observations from a re-analysis of the deposited data

Results flagged for a closer look

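Antisense reads, which no comparison above uses, were seen over BMP4 with C1-27, at 7 counts after 4 h and 5 counts after 24 h. Both DMSO libraries and siGSTO1 had 0 antisense counts there and C1-14 had 2, and a count of 0 allows up to 3. Sense counts of BMP4 in the C1-27 libraries were 695 and 488. At some other members antisense counts differed as much between the DMSO libraries, at 0 and 9 for ID2 and 2 and 7 for SMAD6. They were 0 in both DMSO libraries for ID1, BMP2 and TGFBI.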

How the results depend on the processing

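No paired analysis was possible because the groups compared share fewer than 2 replicate numbers. Of the fitted log2 differences of members under alternatives, 246 kept their direction and side of the threshold and 4 lost the call in the same direction (SMAD7 with DESeq2 in both siGSTO1 comparisons, and TGFB2 against DMSO with DESeq2 and with library totals). With library totals, 2 small ones changed sign, ID2 between siGSTO1 and C1-27 at 24 h to 0.0813 and ID3 between C1-27 at 24 h and 4 h to 0.0334. Members were called only with siGSTO1, 3 against DMSO and 1 against C1-27 at 24 h. Most of the values that kept their side of the threshold therefore had no call to lose. DESeq2 called 1 member with siGSTO1 against DMSO and 0 against C1-27 at 24 h, and 4 list genes against DMSO. Without the RPKM minimum, members past 1.4-fold numbered 5 for siGSTO1 (2 higher, 3 lower), 3 for the later C1-27 library, 2 for it against the earlier and 6 for siGSTO1 against C1-27 at 24 h. TGFBI is among the 3 and among the 2, on 1 count with C1-27 at 24 h against 6 over DMSO and 4 at 4 h. A pseudocount of 1 RPKM left 0 for C1-27 at 24 h, and DESeq2 scaling gave 2 for 24 h against 4 h. Leaving out a DMSO library gave 1 (without library 1) to 2 (without library 2) with C1-27 at 4 h, 1 to 3 when taken at 24 h (3 without library 1; without library 2 the 1 gene is ID1, higher), and 0 to 2 with C1-14 (2 without library 2). The cause was not tested. Shares of all genes under these settings are not given, so these counts of members cannot be set against them. Among tested genes at 0.5 RPKM or less, 13.5% were at least 1.4-fold higher in DMSO library 2 than in library 1. Among genes above that minimum 2.81% were. With either DMSO library left out no residual degree of freedom remains, so edgeR was not run.

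TMM and DESeq2 scaling of RPKM moved the all-gene median log2 ratio of siGSTO1 to DMSO from -0.00072 to -0.12 and -0.15, and library totals moved the edgeR median to 0.18. Under the 6 alternatives the fitted log2 difference of siGSTO1 from DMSO ran from -1.77 to -1.57 for BMP4. For TGFB2 it ran from -1.22 to -1.02, and the call was lost with library totals and with DESeq2. For SMAD7 it ran from -3.35 to -3.16, and the call was lost with DESeq2. The fit using the older quasi-likelihood method was added after seeing the data. Depth limits BMP2 and TGFBI, and SMAD7 with siGSTO1 rests on 18 counts.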
